A study of Mus musculus with 6 samples.

Results

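The genes described here are 10 receptors through which myeloid cells read growth factors and cytokines: Flt3, Kit, Csf1r, Csf3r, Csf2ra, Csf2rb, Csf2rb2, Il3ra, Il6ra and Ifngr1. They were taken by symbol from the table of read counts, which holds 53733 named genes, and each symbol matched 1 entry. A total of 9 had enough reads to be tested among 13652 tested genes; Kit did not. The rule that chose them names symbols and no measured value, though earlier results of these data were known when it was written.

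The cells were an acute myeloid leukaemia line made from mouse foetal liver cells by retroviral transduction. Its vector MSCV-Luc2-IRES-MLL-AF9, which carries luciferase and the fusion oncogene MLL-AF9, was expressed constitutively in every mouse of the study. Its second vector, TRE-tight-DsRED-IRES-FLT3-ITD, carries a red fluorescent reporter and the constantly active mutant receptor FLT3-ITD behind a promoter that works in the presence of doxycycline. Each NSG mouse, an immunodeficient strain that keeps its own myeloid and erythroid cells, received the cells by tail vein and had 96 h of engraftment on doxycycline. The ON group (3 mice) then stayed on doxycycline, and the OFF group (3 mice) went without it for 48 h, so that loss of the transgene and loss of the drug cannot be told apart. Viable leukaemic cells were then sorted from the marrow, by markers that the labels do not name, and their total RNA was read from the 3′ ends of mRNAs (QuantSeq), with 1 library per mouse. Whether DsRED, which the doxycycline-driven vector carries, was part of the gate is not known here; a gate on it would select ON and OFF cells differently. All 6 libraries come from 1 cell line, the labels name no age for the mice, and reads of host and graft, both mouse, cannot be told apart.

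The 6 libraries held between 8335234 and 9316361 counts over named genes. Values are CPM, counts scaled to a common library size, and 3 counts, below which a gene with 0 counts may lie, were worth between 0.329 and 0.371 CPM. Rows of ribosomal RNA took 10.1% to 18% of the counts. The first principal component of the expression values held 67.6% of the variance and parted the groups, and the second held 13.6% and separated OFF replicate 3 from the other OFF libraries. Markers of the leukaemia's myeloid lineage were present in every library: the summed level of Ptprc, Itgam, Mpo, Elane, Cd33 and Spi1 was 1492 to 1737 CPM in ON and 3004 to 3214 CPM in OFF. Because values are not divided by gene length and depend on where reads prime, levels are compared between groups and not between genes.

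The receptors fall into families. FLT3, KIT and the CSF1 receptor are receptor tyrosine kinases, which phosphorylate themselves and their partners when a ligand joins a pair of them. CSF3R, the receptor for G-CSF, has no kinase of its own and signals through bound Janus kinases. Receptors for GM-CSF and IL-3 each pair a ligand-specific alpha chain (Csf2ra, Il3ra) with a beta chain: Csf2rb encodes the common beta chain, which also serves IL-5, and Csf2rb2 encodes a beta chain, found in mice, that serves IL-3. The IL-6 receptor alpha chain, Il6ra, signals through gp130, encoded by Il6st, and the interferon gamma receptor joins Ifngr1 and Ifngr2. In bone marrow, Kit and Flt3 are known from stem and progenitor cells, Csf1r from monocytes and macrophages, and Csf3r from the neutrophil lineage. PU.1 (Spi1) and C/EBP proteins are known regulators of several of these genes, and STAT factors act below the cytokine receptors.

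By the gene models of GENCODE on GRCm38, Flt3 lies at chr5:147330741-147400489 on the minus strand and Kit at chr5:75574916-75656722 on the plus strand. Csf3r lies at chr4:126024550-126044440 on the plus strand, Csf2ra at chr19:61223957-61228429 on the minus strand, and Il3ra at chr14:14346275-14356011 on the plus strand. The beta chain genes are neighbours on opposite strands, Csf2rb at chr15:78325752-78353847 (plus) and Csf2rb2 at chr15:78282507-78305721 (minus). Il6ra lies at chr3:89864059-89913196 on the minus strand and Ifngr1 at chr10:19591949-19610229 on the plus strand. All are protein-coding, and their counts come from exons near the 3′ ends.

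Promoter windows of 300 bases, 250 before and 50 after the annotated start, were read from RefSeq (GRCm38.p6) for 8 of the genes, Flt3, Kit, Csf3r, Csf2ra, Csf2rb2, Il3ra, Il6ra and Ifngr1. The PU.1-like word GAGGAAG, on either strand, was found in the windows of 4 of them, Csf3r, Csf2ra, Csf2rb2 and Kit, and in 13.6% of 32851 mouse promoters of the same length. These 4 windows are shown because 3 of them belong to genes that were higher in OFF and the fourth, that of Kit, to a gene with almost no reads in either group. The word stands 86 bases before the start in Csf3r, 223 before in Kit, 168 before and 28 after in Csf2rb2, and 14 and 8 before in Csf2ra, where the 2 matches overlap. Csf2rb2 also holds a STAT-like word, TTCNNNGAA, 15 bases before the start. That word is in 8.3% of all promoters. Il3ra alone holds a C/EBP-like word, TTGCNNAA, 134 bases before its start, and 10.8% of all promoters hold it. Capitals mark the matches, and each window is written along its own gene's strand, 5′ to 3′, with its position before it.
Csf3r, chr4:126024409-126024708, plus strand: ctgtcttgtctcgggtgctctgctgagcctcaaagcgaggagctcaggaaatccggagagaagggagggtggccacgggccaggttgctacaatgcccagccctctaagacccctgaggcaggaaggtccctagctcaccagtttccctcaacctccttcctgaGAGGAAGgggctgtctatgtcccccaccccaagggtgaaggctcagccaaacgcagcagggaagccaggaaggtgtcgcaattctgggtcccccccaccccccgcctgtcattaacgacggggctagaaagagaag
Csf2ra, chr19:61228369-61228668, minus strand: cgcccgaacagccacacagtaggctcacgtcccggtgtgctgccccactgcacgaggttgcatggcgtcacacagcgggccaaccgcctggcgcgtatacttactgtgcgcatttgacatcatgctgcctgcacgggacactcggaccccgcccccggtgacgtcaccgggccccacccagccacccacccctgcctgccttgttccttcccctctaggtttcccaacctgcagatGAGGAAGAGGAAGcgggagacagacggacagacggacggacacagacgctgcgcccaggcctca
Csf2rb2, chr15:78305672-78305971, minus strand: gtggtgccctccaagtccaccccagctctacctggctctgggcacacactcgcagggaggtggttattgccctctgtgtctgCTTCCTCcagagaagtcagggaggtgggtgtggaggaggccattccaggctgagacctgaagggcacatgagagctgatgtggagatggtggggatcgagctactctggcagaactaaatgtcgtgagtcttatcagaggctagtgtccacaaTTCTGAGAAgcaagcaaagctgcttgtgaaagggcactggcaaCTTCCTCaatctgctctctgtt
Kit, chr5:75574737-75575036, plus strand: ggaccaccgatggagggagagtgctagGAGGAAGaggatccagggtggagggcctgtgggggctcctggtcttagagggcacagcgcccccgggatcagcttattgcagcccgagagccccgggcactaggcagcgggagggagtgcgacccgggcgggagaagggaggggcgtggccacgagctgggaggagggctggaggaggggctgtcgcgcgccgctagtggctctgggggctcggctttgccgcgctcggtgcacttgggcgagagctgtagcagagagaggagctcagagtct
A match describes letters in the window, and binding was not measured. The window of Flt3, which did not pass the test, and those of Il6ra and Ifngr1, which did, hold none of the 3 words.

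OFF was compared with ON by edgeR's quasi-likelihood test on the counts, with p-values adjusted over all tested genes by the Benjamini-Hochberg method at 0.05. Of the 9 tested receptor genes, 6 were higher in OFF (Csf1r, Csf3r, Csf2ra, Csf2rb2, Il6ra and Ifngr1), beside 17.3% of all tested genes, and 0 were lower, beside 17.5% of all tested genes. In either direction 34.8% of all tested genes passed. The count of 0 held at an unadjusted p under 0.05 and with DESeq2 and limma, since all 9 fold changes were above 0. The same 6 genes had every OFF library above every ON library, which held for 23.8% of all tested genes. The log2 fold changes of the 9 ran from 0.14 to 1.23 with a median of 0.77, and the median over all tested genes was 0.0043. Each of the 9 genes had at least 15 counts in every library. Of the list genes named further on, Csf1, Gbp3, Il1r2, Il21r and Socs3 would not have passed the filter on low counts without the group where they were high, so their calls are no support for their lists. With 3 mice a group, the smallest two-sided p from exact permutation for 1 gene is 0.1, so p-values are those of the model.

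**Figure D1:**
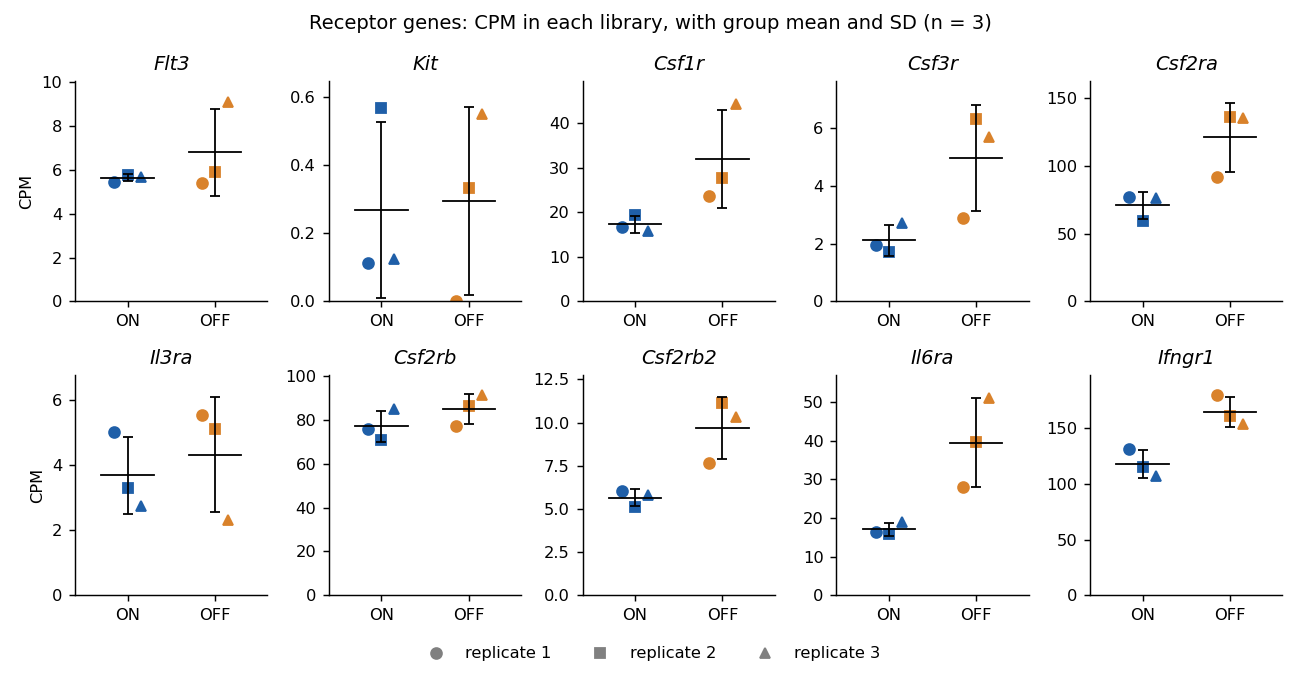
Level of each of the 10 receptor genes in CPM on a linear axis from 0, by group; points are libraries (1 mouse each, the shape gives the replicate number), the horizontal line is the group mean and the bar 1 SD (n = 3). In Csf1r, Csf3r, Csf2ra, Csf2rb2, Il6ra and Ifngr1 the OFF libraries all lie above the ON libraries; in Flt3, Kit, Csf2rb and Il3ra the groups overlap.

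Endogenous mouse Flt3 did not pass the test. It stood at 5.47, 5.79 and 5.69 CPM in ON replicates 1 to 3 and at 5.43, 5.89 and 9.10 CPM in OFF replicates 1 to 3. OFF replicate 3 alone was high, and the other OFF libraries lay close to the ON range. The means were 5.65 ± 0.167 CPM in ON and 6.81 ± 2.00 CPM in OFF (SD, n = 3), with a log2 fold change of 0.27 (SE 0.23, adjusted p = 0.387) and a 95% interval of the fold from 0.861 to 1.69. Without OFF replicate 3 the log2 fold change was 0.0064 (adjusted p = 0.985). The reads counted for Flt3 are those placed at the mouse gene, so this value checks neither the presence nor the loss of the FLT3-ITD transgene, whose reads were not analysed here.

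Kit, the receptor for stem cell factor, was close to absent in both groups. Its counts were 1, 5 and 1 in ON and 0, 3 and 5 in OFF. In 3 of the 6 libraries the count was 3 or more. Pooled, 7 counts in ON gave 0.273 CPM (95% Poisson interval 0.11 to 0.562) and 8 counts in OFF gave 0.295 CPM (0.127 to 0.581); these intervals cover counting error only. When all 27499 genes with any count were tested, the log2 fold change of Kit was 0.09 with an SE of 0.93 (adjusted p = 0.979), so a difference was not detectable at this depth. Mast cell and basophil markers, cell types known for Kit, were low as well: Cpa3, Fcer1a, Mcpt4 and Tpsb2 had no count in any library, and the summed level of all 8 markers was 7.79 to 10.6 CPM in ON and 9.41 to 10.3 CPM in OFF, most of it from Mcpt8. Of 5 early progenitor markers, Mecom had no count, the sum was 25.4 to 28.7 CPM in ON and 29.3 to 34.4 CPM in OFF, and Cd34 held most of it, at 24.7 ± 2.22 CPM in ON and 30.9 ± 2.15 CPM in OFF (difference on the log2 scale 0.32, adjusted p = 0.0556).

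Csf1r, the receptor for CSF1 and IL-34, rose by 1.84-fold. It stood at 16.6, 19.3 and 15.8 CPM in ON, against 23.6, 27.7 and 44.3 CPM in OFF. All OFF libraries were above all ON libraries, and OFF replicate 3 was well above the other OFF libraries. The means were 17.3 ± 1.82 and 31.9 ± 11.0 CPM (SD, n = 3), the log2 fold change was 0.88 (SE 0.21, adjusted p = 0.00627), and the 95% interval of the fold ran from 1.35 to 2.53. Without OFF replicate 3 the log2 fold change fell to 0.57 and still passed (adjusted p = 0.00203). In such bulk samples, more cells of a type and more RNA per cell cannot be told apart. The exons of Csf1r share 873 bases, up to its 3′ end, with Hmgxb3 on the opposite strand. Whether the authors' counting used strand is not stated by the labels, and reads of both genes may not be fully separated. Hmgxb3 moved the other way: it was 11.3 to 12.4 CPM in ON and 7.24 to 9.97 CPM in OFF, a log2 fold change of -0.50 (SE 0.17, adjusted p = 0.0324).

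Csf3r, the G-CSF receptor, rose by 2.35-fold on few reads. It stood at 1.94, 1.70 and 2.72 CPM in ON, against 2.88, 6.33 and 5.70 CPM in OFF. The groups did not overlap, but OFF replicate 1 was only just above the highest ON library. The means were 2.12 ± 0.533 and 4.97 ± 1.84 CPM (SD, n = 3), with a log2 fold change of 1.23 (SE 0.33, adjusted p = 0.00938) and a 95% interval of the fold from 1.44 to 3.82. The call was lost when ON replicate 2 was left out (log2 fold change 1.10, adjusted p = 0.0575) and when OFF replicate 2 was left out (1.02, adjusted p = 0.0677). Without OFF replicate 3 it passed, at 1.13 (adjusted p = 0.0124).

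**Figure D2:**
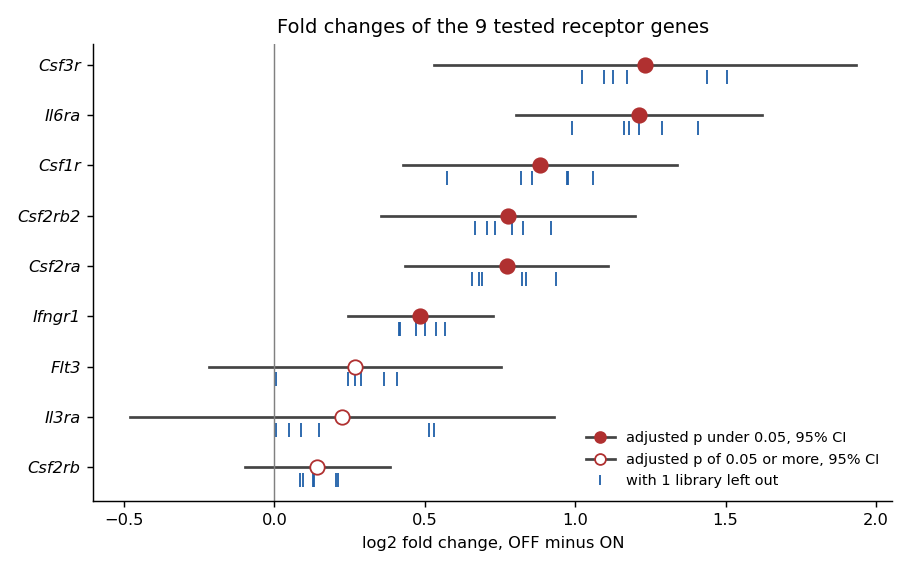
Log2 fold change, OFF minus ON, of the 9 tested receptor genes (circles; filled where the adjusted p was under 0.05) with 95% intervals (grey bars); blue ticks show the value with each of the 6 libraries left out in turn. Csf3r (1.23) and Il6ra (1.21) lie close together at the top, and the intervals of Flt3, Il3ra and Csf2rb include 0.

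Among the chains of the GM-CSF and IL-3 receptors, the alpha chain for GM-CSF and the IL-3 beta chain rose, and the common beta chain and the alpha chain for IL-3 did not pass the test. Csf2ra stood at 77.0, 59.2 and 76.6 CPM in ON, against 91.9, 136 and 135 CPM in OFF. OFF replicates 2 and 3 were nearly equal, and OFF replicate 1 lay between them and ON. Its mean went from 70.9 ± 10.2 to 121 ± 25.3 CPM (SD, n = 3), a log2 fold change of 0.77 (SE 0.16, adjusted p = 0.00198) and a fold of 1.71 (95% interval 1.35 to 2.16). Leaving out OFF replicate 3 gave 0.69 (adjusted p = 0.00822).

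Il3ra stood at 5.01, 3.29 and 2.72 CPM in ON, against 5.54, 5.11 and 2.30 CPM in OFF. The groups overlapped fully, and the lowest of the 6 libraries was OFF replicate 3. The log2 fold change was 0.22 (SE 0.33, adjusted p = 0.636), the 95% interval of the fold was 0.717 to 1.91, and the log2 value ranged from 0.0040 without OFF replicate 1 to 0.53 without OFF replicate 3 (adjusted p = 0.131).

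Csf2rb, the common beta chain, stood at 75.7, 70.8 and 85.0 CPM in ON, against 77.5, 86.6 and 91.3 CPM in OFF. The groups overlapped, with ON replicate 3 above OFF replicate 1. The mean was 77.2 ± 7.22 CPM in ON and 85.1 ± 6.99 CPM in OFF (SD, n = 3), with a log2 fold change of 0.14 (SE 0.11, adjusted p = 0.356) and a 95% interval of the fold from 0.934 to 1.31. Its neighbour Csf2rb2 stood at 6.04, 5.11 and 5.81 CPM in ON, against 7.64, 11.1 and 10.3 CPM in OFF, with no overlap and OFF replicate 1 nearest to ON. The log2 fold change of Csf2rb2 was 0.78 (SE 0.20, adjusted p = 0.00709), a fold of 1.71 (95% interval 1.28 to 2.30), and without OFF replicate 3 it was 0.73 (adjusted p = 0.00828).

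The beta chain genes resemble each other, so reads may be divided between them. Over their longest transcripts, 892 of 4851 stretches of 50 bases of Csf2rb (18.4%) were also found in Csf2rb2, and the same 892 made up 19.0% of the 4691 stretches of Csf2rb2. In the last 500 bases, where 3′ reads of these transcripts would lie, 0 of 451 stretches were shared. Added together, the pair stood at 82.8 ± 7.52 CPM in ON and 94.8 ± 8.58 CPM in OFF (difference on the log2 scale 0.20, SE 0.11, adjusted p = 0.201).

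The balance of chains within a library was read as a ratio of counts, with a two-sided exact permutation test over 6 mice for each of 6 ratios; the smallest p this allows is 0.1, and no ratio could pass. Counts of Csf2ra per count of Csf2rb were 1.02, 0.836 and 0.901 in ON and 1.19, 1.57 and 1.48 in OFF. Every OFF library was above every ON library, with a log2 difference of 0.62 (exact p = 0.1, 0.2 after Benjamini-Hochberg adjustment over the 6 ratios). Counts of Csf2rb2 per count of Csf2rb were 0.0797, 0.0722 and 0.0684 in ON and 0.0986, 0.128 and 0.113 in OFF, again without overlap and with a log2 difference of 0.62 (exact p = 0.1, adjusted 0.2). Il3ra per Csf2rb differed by 0.04 on the log2 scale (exact p = 1), and its groups overlapped. Csf2ra per Il3ra differed by 0.58 (exact p = 0.5, adjusted 0.6). These ratios share genes and are not independent of each other, and they compare groups, not the number of chains on a cell.

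Il6ra, the ligand-binding chain of the IL-6 receptor, rose by 2.32-fold. It stood at 16.3, 15.9 and 19.1 CPM in ON, against 27.9, 39.6 and 51.0 CPM in OFF. No OFF library came near the ON range, and the OFF libraries were spread widely, with OFF replicate 3 highest and OFF replicate 1 lowest. The means were 17.1 ± 1.72 and 39.5 ± 11.6 CPM (SD, n = 3), with a log2 fold change of 1.21 (SE 0.19, adjusted p = 3.61e-04) and a 95% interval of the fold from 1.74 to 3.08. Without OFF replicate 3 it was 0.99 (adjusted p = 1.63e-05). Its exons overlap by 242 bases with those of the predicted gene Gm42809, which has the opposite strand, at a distance of 48896 bases from the 3′ end.

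The signalling partner Il6st did not pass the test. It had 15, 13 and 19 counts in ON and 21, 4 and 8 counts in OFF. Its OFF libraries were spread over more than the range of ON, with OFF replicate 1 within that range and OFF replicates 2 and 3 below it. Its mean was 1.84 ± 0.453 CPM in ON and 1.22 ± 0.985 CPM in OFF (difference on the log2 scale -0.59, adjusted p = 0.365), and without OFF replicate 1 it passed as lower (log2 fold change -1.45, adjusted p = 0.0257). In that setting Il6st passed the filter on low counts only through ON, where it was high, so that call is no support. Counts of Il6ra per count of Il6st were 9.53, 10.8 and 8.11 in ON and 12.0, 89.3 and 58.1 in OFF. The OFF ratios did not overlap those of ON, with a log2 difference of 2.08 (exact p = 0.1, adjusted 0.2), and the denominators of the high ratios were the 4 and 8 counts above.

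Ifngr1, the ligand-binding chain of the interferon gamma receptor, rose by 1.40-fold, the least of the 6 genes that passed. It stood at 131, 116 and 107 CPM in ON, against 180, 162 and 154 CPM in OFF. The groups did not overlap, and OFF replicate 3 was the lowest OFF library here. The means were 118 ± 12.4 and 165 ± 13.4 CPM (SD, n = 3), with a log2 fold change of 0.48 (SE 0.11, adjusted p = 0.00407) and a 95% interval of the fold from 1.18 to 1.65. Its partner chain Ifngr2 stood at 19.9, 19.8 and 20.2 CPM in ON, against 12.8, 20.8 and 24.5 CPM in OFF. The OFF libraries lay on both sides of ON (log2 fold change -0.04, adjusted p = 0.886), and the sign turned without OFF replicate 1 (0.18). Counts of Ifngr1 per count of Ifngr2 differed by 0.58 on the log2 scale (exact p = 0.2, adjusted 0.3), and their groups overlapped.

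A list of 16 genes that interferon gamma is known to induce had 13 tested members: 1 was higher, and 2 were lower, the GTPases Gbp3 and Igtp; neither count exceeds the background of 17.3% higher and 17.5% lower over all tested genes. Igtp went from 7.52 ± 1.69 to 3.94 ± 0.817 CPM (a log2 fold change of -0.93, adjusted p = 0.00705). Gbp3 went from 2.04 ± 0.508 to 0.958 ± 0.170 CPM (-1.07, adjusted p = 0.0352). The median over the 13 was -0.19, and 10 did not pass. The counts of this list moved with the setting: 1 to 3 were higher and 0 to 4 were lower over 14 other settings. Without ON replicate 2, 0 were lower, without ON replicate 3, 1 was lower, and without OFF replicate 1, 3 were higher.

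**Figure D3:**
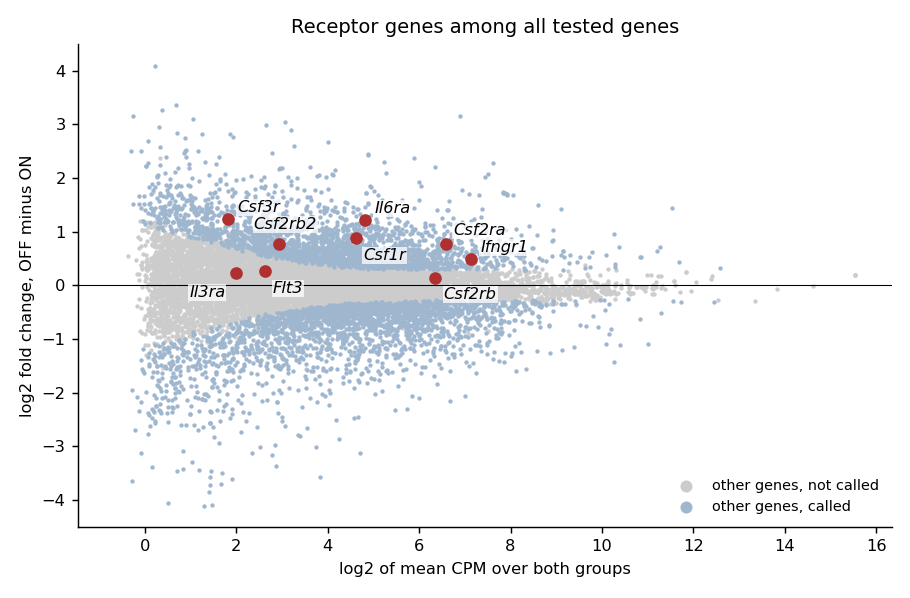
Log2 fold change, OFF minus ON, against the log2 of the mean CPM over both groups for the 13652 tested genes (grey, not called; blue, called; 2 genes lie beyond the axis), with the 9 tested receptor genes in red. The 9 spread over the range of expression, all lie above 0, and Flt3, Il3ra and Csf2rb lie among genes that were not called.

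Markers of maturing cells differed with the group. The summed level of 9 maturing granulocyte markers was 2451 to 2626 CPM in ON and 3600 to 8311 CPM in OFF. Of the 9, 8 rose, where 17.3% of all tested genes were higher. Camp (a neutrophil granule peptide) rose most in amount, from 1593 ± 54.0 to 4335 ± 2036 CPM. It held most of the sum, at 2453, 4056 and 6497 CPM in OFF replicates 1 to 3. Lcn2 and Cxcr2 were highest in OFF replicate 2, and Cxcr2 did not pass (log2 fold change 0.07, adjusted p = 0.722). The sum of 6 monocyte markers was 503 to 577 CPM in ON and 857 to 1331 CPM in OFF. Of the 6, Fn1 did not pass (log2 fold change -0.71, adjusted p = 0.193) and 5 rose, beside the same 17.3% of all tested genes. Among them was Ly6c2, a surface protein of monocytes, from 445 ± 30.0 to 660 ± 104 CPM. F13a1, also among the 5, had 16, 15 and 5 counts in ON and 72, 125 and 109 in OFF. It passed the filter on low counts through OFF, so its call is no support. In both sums OFF replicate 3 was highest and OFF replicate 1 lowest. That is also the order of the OFF libraries in Csf1r and Il6ra and in Flt3, Kit and Csf2rb, which were not called. In Csf3r, Csf2ra and Csf2rb2, which were called, OFF replicate 3 lay in the middle. Ifngr1, which was called, and Il3ra, which was not, had OFF replicate 3 lowest. Which part of the receptor values goes with these marker levels was not tested. Resident macrophage markers, which belong to a cell type known for Csf1r, summed to 40.0 to 43.2 CPM in ON and 17.6 to 24.5 CPM in OFF. Of the 10 markers, 7 had at most 3 counts in every library, and among these Cd5l and Spic had no count. Vcam1, which held most of the sum, went down (39.7 ± 2.03 to 19.8 ± 3.53 CPM, log2 fold change -1.0, adjusted p = 7.67e-05). Mrc1 had 5, 6 and 2 counts in ON and 15, 13 and 12 in OFF. It was called higher (log2 fold change 1.52, adjusted p = 0.0163) but passed the filter on low counts through OFF, so its call is no support.

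Erythroid markers were present and rose: 5 of 9 listed markers were tested and all 5 were higher, beside 17.3% of all tested genes. Alas2 passed the filter through OFF. The sum was 150 to 211 CPM in ON and 576 to 931 CPM in OFF, led by the globin gene Hba-a1 at 69.8 ± 14.0 and 295 ± 73.0 CPM. Megakaryocyte markers summed to 32.2 to 36.9 CPM in ON and 54.7 to 63.6 CPM in OFF, nearly all from Gp1bb (log2 fold change 0.71, adjusted p = 2.42e-04). Stroma and endothelium markers summed to 6.80 to 10.3 CPM in ON and 7.89 to 11.4 CPM in OFF, most of it from Pecam1 (log2 fold change 0.20, adjusted p = 0.545). Markers of 4 further cell types summed to less than 6 CPM in every library: dendritic cells (1.94 to 2.35 in ON, 1.22 to 2.44 in OFF, with Cd209a and Ly6d at 0 and Xcr1 highest), B cells (1.11 to 1.37 and 1.66 to 1.78, Vpreb1 highest), T and NK cells (1.59 to 3.75 and 2.33 to 5.59, Nkg7 highest) and eosinophils (0.742 to 1.25 and 2.33 to 3.62, Ear1 highest). The counts of Vpreb1 were 7, 6 and 2 in ON and 13, 12 and 12 in OFF, and those of Ear1 8, 7 and 6 in ON and 15, 17 and 27 in OFF, so both passed the filter on low counts through OFF. The part of any of these levels in the receptor values was not tested.

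**Figure D4:**
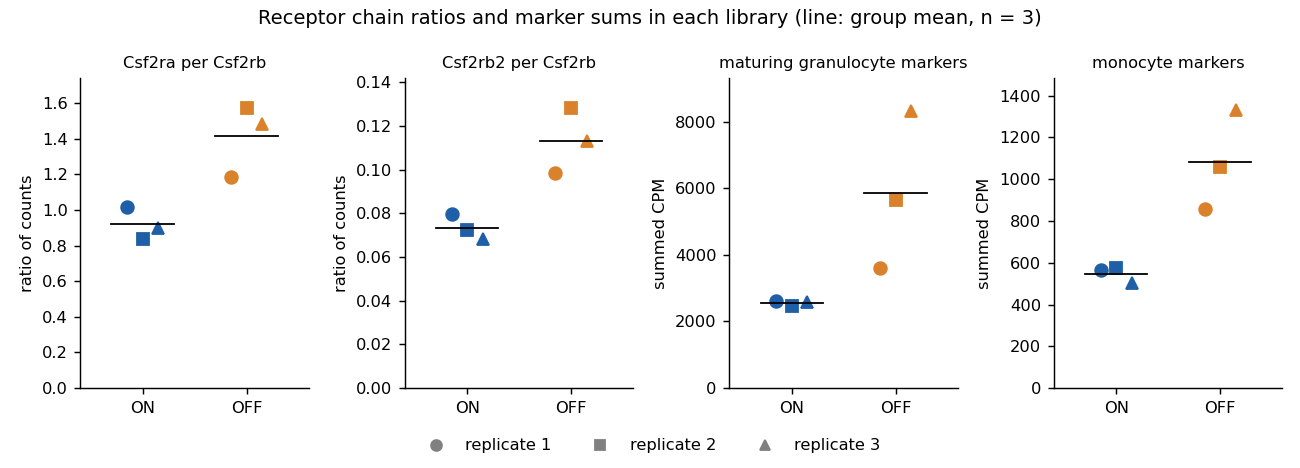
Ratios of counts of Csf2ra and Csf2rb2 to Csf2rb (2 left panels) and summed CPM of maturing granulocyte and monocyte markers (2 right panels) in each library, on linear axes from 0; lines are group means (n = 3). In each panel the 3 OFF libraries lie above the 3 ON libraries, with granulocyte marker sums of 3600 to 8311 CPM in OFF.

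The ligands of these receptors were scarce in the sorted cells. Of 10 ligand genes, Csf2, Csf3, Il3 and Il5 had no count in any library, Kitl had 1 count in 1 OFF library, and 2 were tested. Csf1, the ligand of Csf1r, had 12, 11 and 14 counts in ON and 2, 4 and 3 counts in OFF. It passed the filter through ON and fell from 1.45 ± 0.252 to 0.332 ± 0.111 CPM (a log2 fold change of -2.08, adjusted p = 0.00343), while its receptor rose. Flt3l, the ligand of FLT3, was at 4.44, 4.20 and 5.32 CPM in ON and 3.99, 3.78 and 3.84 CPM in OFF. Its OFF libraries all lay below ON, and it did not pass (log2 fold change -0.26, adjusted p = 0.405).

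Of 4 further chains that serve the 10 receptors or their relatives, Il5ra had no count, and Il6st, Ifngr2 and Il2rg, the common gamma chain (log2 fold change -0.30, adjusted p = 0.11), did not pass, so 0 of the 3 tested were higher or lower in edgeR or DESeq2. Limma on the authors' deposited log2 values, where Il6st is not listed, called 0 as well. At an unadjusted p under 0.05, 1 was lower (Il2rg), and without OFF replicate 1, 2 passed as lower. Il6st was among these 2, and there it passed the filter on low counts only through ON. Of 32 other cytokine receptor genes, 18 were tested, 7 were higher (background 17.3%) and 2 lower (background 17.5%), with a median log2 fold change of 0.33. The 7 were Il21r, Il13ra1, Tnfrsf1a, Il10rb, Ifnar1, Il11ra1 and Crlf2. Il21r, the receptor for IL-21, went from 0.971 ± 0.354 to 3.02 ± 0.123 CPM (a log2 fold change of 1.62, adjusted p = 0.00223), and Tnfrsf1a, a receptor for TNF, from 46.3 ± 0.913 to 71.6 ± 10.5 CPM (0.63, adjusted p = 0.00103). The 2 that fell both belong to the IL-1 receptor family. Il1r2, a decoy receptor without a signalling domain, went from 4.12 ± 0.474 to 1.62 ± 0.775 CPM (-1.34, adjusted p = 0.00679). Il1rap, the accessory chain, went from 9.24 ± 0.957 to 5.45 ± 0.773 CPM (-0.76, adjusted p = 0.00652).

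Of 31 genes whose products carry the signal just below such receptors, 30 were tested, 15 were higher and 3 lower, with a median log2 fold change of 0.33, beside 17.3% and 17.5% of all tested genes. Cytoplasmic tyrosine kinases of myeloid cells were among those that rose. Fes, a non-receptor tyrosine kinase, was at 43.4, 43.7 and 41.4 CPM in ON, against 82.6, 93.7 and 112 CPM in OFF, each OFF library far above ON (log2 fold change 1.17, adjusted p = 9.52e-06). Fgr, a kinase of the Src family, went from 6.83 ± 1.20 to 15.8 ± 4.80 CPM (1.20, adjusted p = 6.70e-04). Jak2, the kinase bound by the beta chains and CSF3R among others, went from 13.5 ± 1.67 to 17.0 ± 1.71 CPM and did not pass (0.33, adjusted p = 0.101). Stat5a, a target of JAK2, was at 9.18 ± 0.440 and 9.58 ± 0.812 CPM and did not pass (0.06, adjusted p = 0.809). The 3 that fell were Hras (-0.85, adjusted p = 7.75e-04), Ptpn11 (-0.33, adjusted p = 0.0350) and Sos1 (-0.36, adjusted p = 0.0469). Hras encodes a Ras protein, and the products of Ptpn11 and Sos1 act between receptors and Ras. With other settings 8 to 16 of the 30 were higher and 1 to 3 were lower, and with each of the 3 ON libraries left out in turn 8 were higher and 1 was lower.

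Of 17 genes whose products damp receptor signals, 16 were tested, 4 were higher and 4 lower, with a median log2 fold change of 0.11; the background shares were 17.3% and 17.5%. The genes that fell included 3 of the SOCS family, which STAT factors are known to induce and whose products block cytokine receptors. Socs2 was at 11.4, 9.65 and 12.5 CPM in ON, against 4.54, 4.11 and 3.29 CPM in OFF. Cish was at 18.1, 20.2 and 27.6 CPM in ON, against 8.97, 10.9 and 8.89 CPM in OFF. In both genes the OFF libraries lay together well below ON, with log2 fold changes of -1.49 for Socs2 (adjusted p = 6.40e-05) and -1.19 for Cish (adjusted p = 1.26e-04). Socs3 went from 2.12 ± 0.421 to 0.478 ± 0.335 CPM (-2.11, adjusted p = 0.00325), and the fourth was Ptpn1 (-0.34, adjusted p = 0.0174), a tyrosine phosphatase. The 4 that rose were Ptpn6 (0.55), Sla (0.62), Sh2b3 (0.50) and Cblb (0.71), an inhibitory phosphatase, 2 adaptors and a ubiquitin ligase. Without any 1 of the ON libraries, 2 were higher. The sum of this list's levels was 949 to 955 CPM in ON and 1012 to 1136 CPM in OFF.

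**Figure D5:**
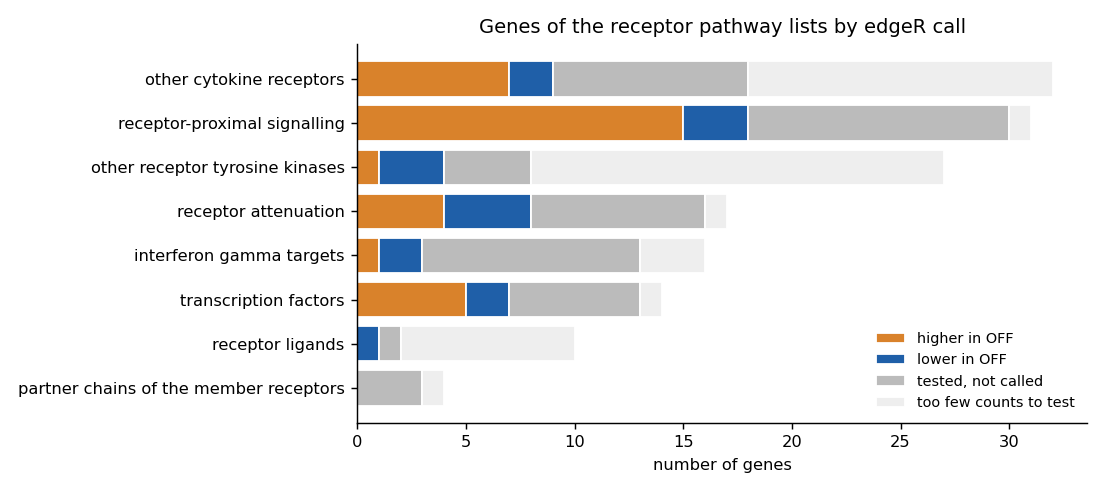
Number of genes in each of 8 lists of receptor-related genes that were higher in OFF, lower in OFF, tested but not called, or had too few counts to test (edgeR, adjusted p under 0.05). The signalling list has 15 higher and 3 lower of 30 tested, and the attenuation list 4 and 4 of 16.

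Of 14 transcription factors tied to the control of these receptor genes, 13 were tested, 5 were higher (Myb, Runx1, Gfi1, Cebpe and Meis1) and 2 lower (Egr1 and Cebpb), with a median log2 fold change of 0.21. The background shares were 17.3% and 17.5%, and without ON replicate 2, 1 was lower. Spi1, which encodes PU.1, was at 177, 160 and 168 CPM in ON, against 186, 206 and 190 CPM in OFF. The OFF libraries were above the ON libraries by little, and the gene did not pass (log2 fold change 0.21, adjusted p = 0.135), though it did with limma on the authors' deposited log2 values (0.26, adjusted p = 0.0497). Cebpa, a regulator of Csf3r, stood at 4.56 ± 0.303 and 4.27 ± 0.789 CPM (-0.09, adjusted p = 0.794; 0.041 without OFF replicate 1), and Gata2, a factor of stem and mast cells and a regulator of Kit, at 1.57 ± 0.304 and 1.03 ± 0.537 CPM (-0.59, adjusted p = 0.293). Egr1, an early gene induced by growth factor signals, fell from 12.1 ± 4.19 to 2.69 ± 1.25 CPM (-2.17, adjusted p = 4.51e-04).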

How the data were processed

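RNA of sorted leukaemic cells from 6 mice was read with a QuantSeq 3′ kit (Lexogen), as the labels' protocols say; groups were taken from sample titles. Per the submitters' processing notes, the tools were HISAT2 2.0.4, featureCounts of Subread 1.6.3, cutadapt 1.9.1, limma 3.42.2, R 3.6.1, FastQC 0.11.6 and bcl2fastq 2.17.1.14, with build mm10. The sources used here do not give the annotation, the strand setting or the treatment of reads with several positions. The deposited counts are whole reads per gene in 54838 rows; 1105 rows without a name, with 0.145% to 0.172% of each library, were left out. The authors' deposited log2 table (12287 genes, 9 of the receptors) served as an alternative only.

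Counts were tested in R 4.3.3 with edgeR 4.0.16 (filterByExpr by group, minimum count 10, minimum total 15; TMM; robust quasi-likelihood fit; no covariate), checked on simulated data first. CPM use TMM-scaled libraries, a log2 fold change is OFF minus ON, and its SE is its size over the square root of F. Alternatives were other scalings (RLE, upper quartile), DESeq2 1.42.0, 2 other filters, ribosomal RNA rows left out, a replicate block, limma 3.58.1 on the log2 table, and each library left out. Libraries of a group differed beyond counting noise (chi-square per degree of freedom 2.95 to 39.5), so each counted as 1 replicate. Reads from PCR carry no molecular identifier and may repeat a molecule, so Poisson intervals of Kit and limits from counts cover counting error only. Intervals of the fold rest on the SE of the quasi-likelihood fit, which also takes in the spread between libraries of a group.

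The receptor genes and all lists were chosen with earlier results of these data known. From each pathway list the text names genes that passed with a log2 change of at least 1 and a mean of at least 5 CPM (at most 4), 10 genes named whatever their values, and the marker of highest level per cell type; other list genes were named after their values were seen, and some list genes are counted but not reported here by name. Likeness of profiles used centred log2 CPM over 6 libraries.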

Additional observations from a re-analysis of the deposited data

How the results depend on the processing

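Of the receptor genes, 5 to 6 were higher and 0 lower under the 14 alternatives; Csf3r was the one that lost its call, without ON replicate 2 and without OFF replicate 2. All genes called over the table numbered 1615 to 2704 higher and 1679 to 2740 lower. Over the 8 pathway lists together, 32 genes were higher and 17 lower, beside 17.3% higher and 17.5% lower over all tested genes. The number tested is given with each list. Counted as lower are Csf1, Gbp3, Il1r2, Socs3, Epha2, Fgfr1 and Ryk, and as higher Il21r. These genes passed the filter on low counts only through the group where they were high. The pooled counts are therefore no support for the lists. With 1 library left out the counts ran from 20 to 37 higher and from 10 to 19 lower, and with limma on the authors' deposited log2 values the number lower was 11; the smaller designs have fewer samples and those values cover fewer genes. The log2 fold change of Ifngr2 turned to 0.18 without OFF replicate 1 (-0.24 to 0.18 over the libraries left out), and that of Cebpa turned to 0.041 without the same library (-0.22 to 0.041); neither passed, and the cause was not tested. The summed Csf2rb pair did not pass under any alternative (0.14 to 0.27). Same-numbered ON and OFF libraries did not deviate together (r = 0.035, -0.076 and -0.050 over genes). The labels name no pairing of the mice, and so few libraries cannot exclude one. With a replicate block 6 receptor genes were higher, Csf3r at 1.20 (adjusted p = 0.00835), and 29 list genes were higher and 16 lower. Of all 13652 tested genes, that setting called 2173 higher and 2231 lower. With 3 counts worth 0.329 to 0.371 CPM, depth leaves Kit undecided.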

Other observations

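Genes whose profile over the 6 libraries lay nearest to a receptor's were looked up among tested genes of at least 10 CPM, leaving out predicted genes. Since likeness was taken over ON and OFF libraries together, a change near the receptor's own follows from the choice. For Csf1r (7060 genes compared) they were Unc13d, Hcst and Serhl, with root mean square differences of 0.0568, 0.0841 and 0.0958 on the log2 scale. Unc13d, which encodes a protein of granule release, went from 12.5 to 21.7 CPM, and Hcst, which encodes the signalling adaptor DAP10, from 18 to 36.0 CPM. For Csf3r (7061 genes compared) they were Rflnb, Rdh12 and Il1f9, at 0.174, 0.177 and 0.206. Il1f9, a cytokine of the IL-1 family, went from 8.52 to 23.2 CPM. Csf3r has few counts, 15 to 57 in a library. No such list was made for Kit, which was not tested.

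Outside the 3 receptor tyrosine kinases among the receptors, 27 others were listed and 8 had enough reads to be tested. Of these, 1 was higher in OFF and 3 were lower, with a median log2 fold change of -0.11, beside 17.3% higher and 17.5% lower over all tested genes; with limma on the authors' deposited log2 values 1 was lower. All 3 that were lower would not have passed the filter on low counts without the ON libraries, where they were high, so their number supports nothing about the list. Insr, the insulin receptor, rose from 9.86 ± 0.304 to 16.7 ± 1.31 CPM (SD, n = 3; log2 fold change 0.76, adjusted p = 9.34e-04). Epha2, an ephrin receptor, fell from 2.44 ± 0.939 to 0.847 ± 0.0625 CPM (-1.52, adjusted p = 0.00726), Fgfr1, a fibroblast growth factor receptor, from 3.31 ± 0.219 to 1.22 ± 0.339 CPM (-1.43, adjusted p = 0.00307), and Ryk, a receptor for Wnt ligands, from 2.87 ± 0.783 to 0.737 ± 0.321 CPM (-1.93, adjusted p = 0.00162). Igf1r, which binds insulin-like growth factor, was at 96.7 ± 5.40 and 91.1 ± 12.5 CPM and did not pass (-0.09, adjusted p = 0.614). Ephb4, Ltk, Tek and Tie1 were among those with no count in any library.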
